A study of Mus musculus with 14 samples.

Results

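Arg1, Icos, Il17rb, Il1rl1, Il4, Il5, Il13 and Areg are genes by which group 2 innate lymphoid cells (ILC2s) are usually recognised, and they were followed here in sorted group 1 cells. They were chosen as the rows of the gene table whose Ensembl identifiers map to these 8 symbols. All 8 were among the 46078 genes listed. Of the 8, 5 (Arg1, Icos, Il17rb, Il1rl1 and Il4) passed the filter on low counts and were tested, and Il5, Il13 and Areg did not pass it.

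ILC2s are tissue lymphocytes without a rearranged antigen receptor that answer the epithelial alarm cytokines IL-33 and IL-25 by releasing IL-5, IL-13 and amphiregulin. IL-33 binds the receptor encoded by Il1rl1, and IL-25 binds a receptor made of the products of Il17rb and Il17ra. The transcription factor GATA3 is required for ILC2s and for the type 2 cytokine genes, whereas natural killer (NK) cells and ILC1s depend on T-bet and release interferon gamma.

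Group 1 cells of the bone marrow were profiled by bulk RNA-seq. For each library 2000 cells of C57BL/6 mice aged 8 weeks were sorted, either as immature ILC1s (iILC1: NK1.1, IL-7Ra and CD49a present, CD3 absent) or as immature NK cells (iNK: NK1.1, DX5 and CD27 present, CD3, CD11b and IL-7Ra absent). In the conditional knockout (cKO) mice, of genotype Vav-Cre;Il-15-flox/KO, Vav drives Cre in the blood lineage as a whole. The control mice, of genotype Il-15-flox/KO, lacked Cre but had the same floxed Il15 allele over a knockout allele, so no group carried a full pair of working Il15 alleles. The groups were cKO iILC1 (n = 4), control iILC1 (n = 3), cKO iNK (n = 4) and control iNK (n = 3). The labels do not say that samples came from separate mice, so p-values speak of the spread among samples, which may be technical.

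Total counts were 5478641 to 10308693 per cKO iILC1 library, 3512796 to 4933284 per control iILC1 library, 6254844 to 12572326 per cKO iNK library and 6238016 to 8013984 per control iNK library. Genes shared by NK cells and ILC1s were present in every group: Ncr1, Klrb1c and Tbx21 had group means of 856 to 2108, 1297 to 1836 and 435 to 655 CPM (counts-per-million, with library totals scaled by TMM factors). Being shared, they do not check which of the 2 cell types was sorted, nor that other cells were absent. Il15 averaged 18.0 ± 5.62 CPM in cKO iILC1 and 12.9 ± 1.07 CPM in control iILC1, and 10.6 ± 1.55 CPM in cKO iNK and 9.85 ± 1.52 CPM in control iNK (SD). Its genotype differences did not pass edgeR's quasi-likelihood test (adjusted p = 0.979 in iILC1 and 0.953 in iNK), and counts per gene do not separate the floxed part, so they check neither the deletion nor the labels.

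A yardstick for low levels came from 1319 olfactory and vomeronasal receptor genes, which lymphocytes are not known to use. Per kilobase of exon, the 95th percentile of these receptor genes averaged 5.17 CPM in cKO iILC1, 5.37 CPM in control iILC1, 4.68 CPM in cKO iNK and 3.79 CPM in control iNK. Their medians were 0.92, 1.14, 0.74 and 0.73 CPM per kilobase in the same order. A member below that percentile was at a level that genes with no known use in these cells also reached.

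Arg1 and Icos were the members with a clear level, and Arg1 was the member that differed most between the cell types. Arg1 was 15.2-fold higher in iILC1 than in iNK of cKO mice and 8.51-fold higher in control mice. Icos was above the receptor-gene percentile in all 14 libraries and was 2.18-fold higher in iILC1 than in iNK of cKO mice. The receptor genes Il1rl1 and Il17rb and the cytokine gene Il4 stayed below that percentile in every library. Il5, Il13 and Areg had 60, 12 and 18 counts over all 14 libraries together.

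**Figure D1:**
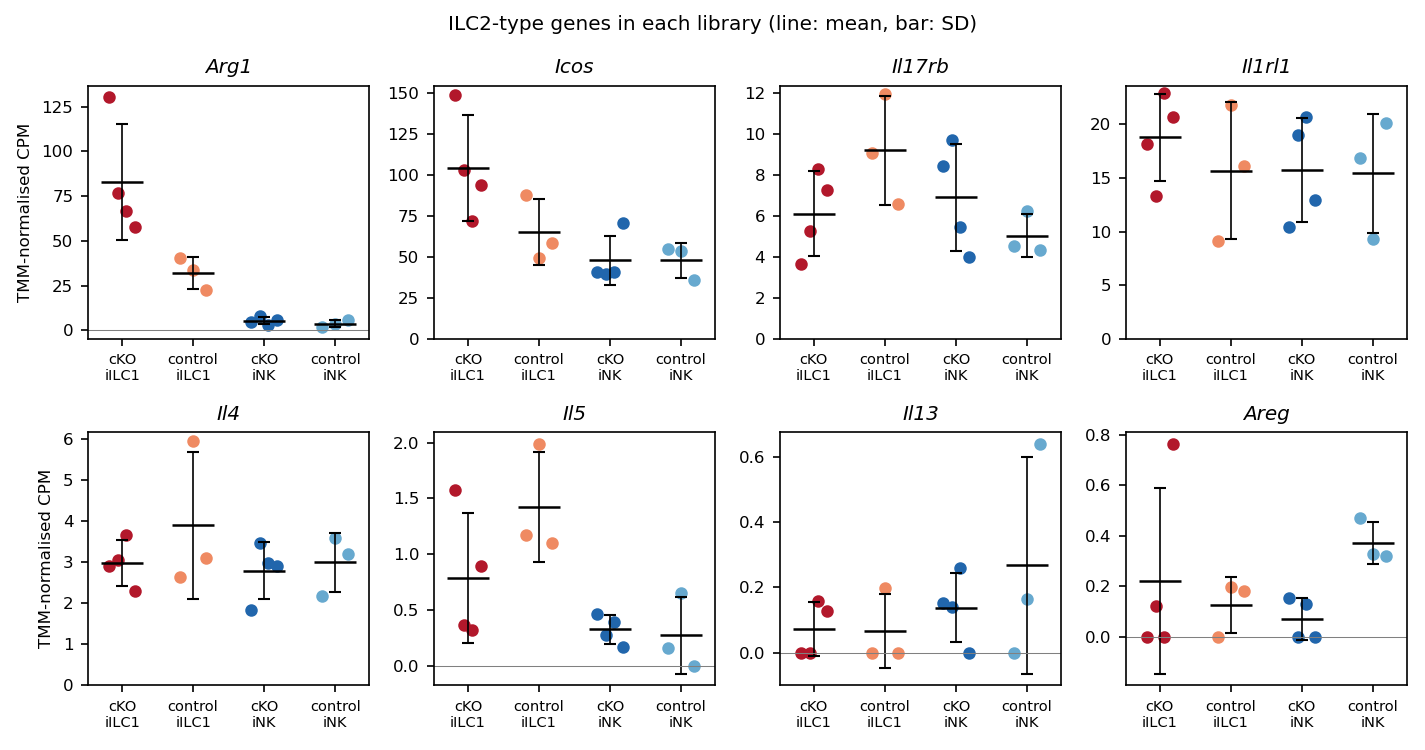
TMM-normalised CPM of the 8 genes (vertical axes, each with its own scale) in every library of the 4 groups (horizontal axes). Points are libraries, the long line is the mean and the bar is the SD; the 4 cKO iILC1 points of Arg1 (57.5 to 130 CPM) lie above the 3 control iILC1 points (22.3 to 40.4 CPM) and all iNK points (at most 7.90 CPM).

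Between the cell types, 2 of the 5 tested members (Arg1 and Icos) were called higher in iILC1 than in iNK of cKO mice, where 3.42% of all 26990 genes tested were called in either direction. In control mice 1 of the 5 (Arg1) was called higher, against 3.91% of all genes. None was called lower. The median log2 fold change of all genes tested was 0.01 in cKO mice and 0.16 in control mice, so that estimates in control mice are best read against 0.16.

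Arg1 (ENSMUSG00000019987, chromosome 10, 24915208 to 24927470, minus strand, mm10) encodes arginase 1, which splits arginine into ornithine and urea and is abundant in ILC2s and in some macrophages. It had 130, 76.7, 66.8 and 57.5 CPM in the cKO iILC1 libraries and 40.4, 33.6 and 22.3 CPM in the control iILC1 libraries. It had 4.59, 7.90, 3.25 and 5.96 CPM in the cKO iNK libraries and 2.03, 3.44 and 5.76 CPM in the control iNK libraries. The iILC1 libraries of each genotype all lay above the iNK libraries, whereas cKO and control iNK overlapped.

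The log2 fold change of Arg1 in iILC1 over iNK was 3.92 (SE 0.31, 95% interval 3.28 to 4.56) in cKO mice, with an edgeR adjusted p of 4.1e-10. In control mice it was 3.09 (SE 0.38, interval 2.32 to 3.86), with an edgeR adjusted p of 3.7e-06. Every iILC1 library lay above every iNK library for 3.52% of all genes in cKO mice and for 12% in control mice. A bulk library cannot tell fewer cells that express a gene from less RNA per cell, which holds for every value here.

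Per kilobase of exon, Arg1 averaged 56.1 CPM in cKO iILC1, 21.7 CPM in control iILC1, 3.68 CPM in cKO iNK and 2.54 CPM in control iNK. Arg1 lay above at least 99.9% of the olfactory and vomeronasal genes in each iILC1 library. In iNK it lay above 74.3% to 94.8% of them, within their range.

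**Figure D2:**
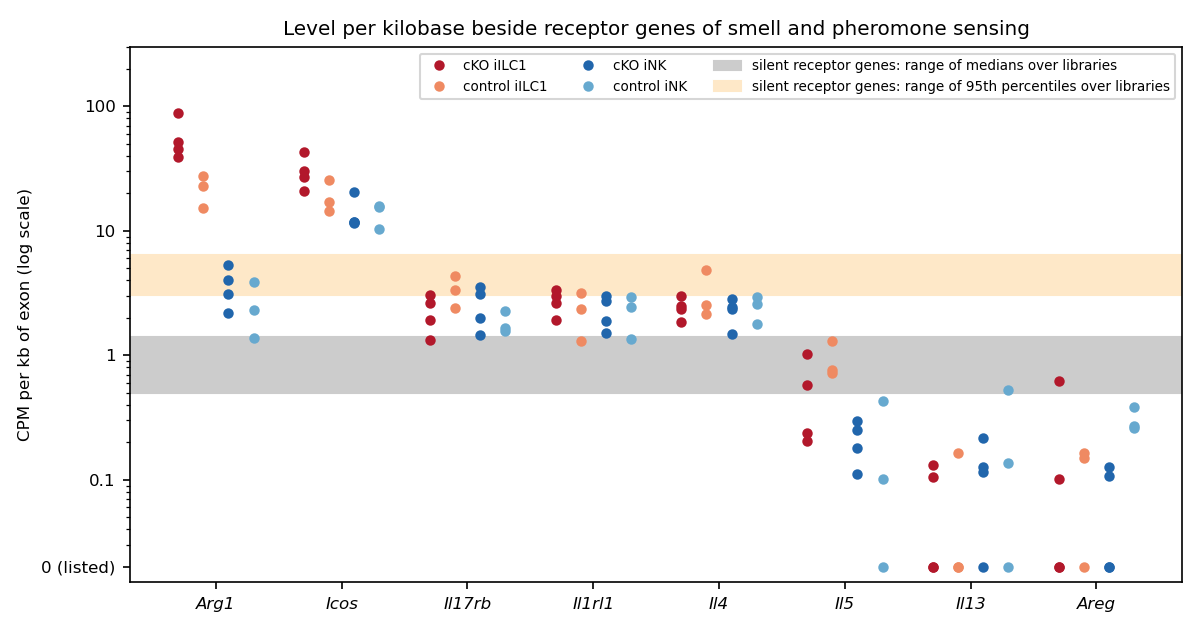
CPM per kilobase of exon (log axis) of the 8 genes in each library, beside the olfactory and vomeronasal receptor genes: the grey band spans their medians and the tan band their 95th percentiles over the 14 libraries. Arg1 in iILC1 and Icos in all groups lie above the tan band, and Il5, Il13 and Areg lie in or below the grey one, with counts of 0 drawn at the foot.

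Icos (ENSMUSG00000026009, chromosome 1, 60977927 to 61000320, plus strand) encodes a costimulatory receptor of the CD28 family, which ILC2s use through its ligand ICOSL. It had 149, 103, 72.1 and 93.7 CPM in the cKO iILC1 libraries and 87.7, 49.1 and 58.6 CPM in the control iILC1 libraries. It had 40.5, 39.4, 40.7 and 70.5 CPM in the cKO iNK libraries and 54.5, 53.5 and 35.5 CPM in the control iNK libraries. The cKO iILC1 libraries all exceeded the cKO iNK libraries, narrowly so at replicate 3 of cKO iILC1 and replicate 4 of cKO iNK, and the control groups overlapped.

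The log2 fold change of Icos in iILC1 over iNK was 1.12 (SE 0.24, interval 0.63 to 1.62) in cKO mice, with an edgeR adjusted p of 0.00411. In control mice it was 0.44 (SE 0.28, interval −0.14 to 1.02), with an edgeR adjusted p of 0.367. With the summed level of the receptor genes as a covariate, the control value became 1.03 (edgeR adjusted p = 0.0032). Whether the 2 genotypes differ in this contrast is the interaction, 0.68 (SE 0.37), which did not pass (edgeR adjusted p = 0.709). Icos averaged 30.4, 19.0, 13.9 and 14.0 CPM per kilobase in cKO iILC1, control iILC1, cKO iNK and control iNK.

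In each iILC1 group the same library, replicate 1, was the highest for both Arg1 and Icos. It was also the library of its group with the lowest summed CPM of olfactory and vomeronasal genes, 1540 CPM in cKO iILC1 and 2128 CPM in control iILC1. The part of this difference in the 2 genes was not tested. Without cKO iILC1 replicate 1, the log2 fold change in cKO mice was 0.94 for Icos (edgeR adjusted p = 0.00606), and over all libraries left out in turn that of Arg1 was 3.65 to 4.18.

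Il1rl1 (ENSMUSG00000026069, chromosome 1, 40429570 to 40465415, plus strand) encodes ST2, the IL-33 receptor. It had 18.2, 13.3, 22.9 and 20.7 CPM in the cKO iILC1 libraries and 9.07, 21.9 and 16.1 CPM in the control iILC1 libraries. It had 10.4, 19.0, 20.7 and 12.9 CPM in the cKO iNK libraries and 16.9, 9.33 and 20.2 CPM in the control iNK libraries. All 4 groups overlapped. The log2 fold change in iILC1 over iNK was 0.25 (interval −0.33 to 0.83) in cKO mice and 0.04 (interval −0.65 to 0.73) in control mice, so that a level over 1.78-fold higher in cKO iILC1 than in cKO iNK lies outside the interval. Il1rl1 spans 6894 exonic bases, and per kilobase it averaged 2.24 to 2.72 CPM over the groups, above 64.1% to 91.4% of the receptor genes of a library.

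The promoter of Il1rl1 is shown because it held more GATA words than nearly all others. The letters GATA, with adenine or thymine before them and adenine or guanine after them, were searched on both strands, and the stretch is chr1:40429320-40429569 on GRCm38.p6 (RefSeq), plus strand, ending at the base before the start of the gene. Its 5 words, in capitals, began at positions −217, −141, −110, −80 and −54 from the start site.
Il1rl1: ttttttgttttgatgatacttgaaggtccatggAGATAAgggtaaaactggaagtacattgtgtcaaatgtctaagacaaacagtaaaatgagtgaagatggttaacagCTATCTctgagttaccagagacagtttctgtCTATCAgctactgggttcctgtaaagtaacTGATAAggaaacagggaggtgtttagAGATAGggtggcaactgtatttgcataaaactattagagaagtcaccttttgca
Of 32851 promoter windows of 250 bases, 26.54% held at least 1 such word and 0.0426% held 5 or more. A match is a description of letters and not of binding. A second Il1rl1 window held 1 word. Il17rb had none, but held an AP-1 word (TGANTCA, in 6.749% of windows) at −104, and Areg held neither. The T-box word GGTGTGA (3.333% of windows) and the STAT word TTCNNNGAA (7.02%) were in none of the 8 member windows.

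Il17rb (ENSMUSG00000015966, chromosome 14, 29996141 to 30008896, minus strand) encodes the IL-25 binding chain. It had 3.63, 5.27, 8.27 and 7.25 CPM in the cKO iILC1 libraries and 9.07, 11.9 and 6.59 CPM in the control iILC1 libraries. It had 8.41, 9.71, 5.46 and 4.00 CPM in the cKO iNK libraries and 4.53, 6.22 and 4.32 CPM in the control iNK libraries. The control iILC1 libraries all lay above the control iNK libraries, which also held for 12% of all genes, and the cKO groups overlapped. The control log2 fold change was 0.87 (SE 0.40, edgeR adjusted p = 0.217), and that in cKO mice was −0.17 (interval −0.86 to 0.52). Every library kept Il17rb below the 95th percentile of the receptor genes.

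The partner chains of these receptors were not called in any comparison. Il17ra, the second chain of the IL-25 receptor, averaged 65.3, 62.8, 74.2 and 83.8 CPM per kilobase in cKO iILC1, control iILC1, cKO iNK and control iNK. Il1rap, the accessory chain of the IL-33 receptor, averaged 3.03, 4.01, 3.56 and 3.75 CPM per kilobase in the same order, below the receptor-gene percentile. Of 13 signalling genes below the member receptors, Nfkbia, an inhibitor of NF-kB, was called higher in cKO iILC1 (253 ± 46.6 CPM) than in cKO iNK (144 ± 31.2 CPM), with an edgeR adjusted p of 0.0223 and 0.077 at most when libraries were left out. None of the 13 was called in control mice. Il18r1, which lies in the same gene cluster as Il1rl1 and encodes the receptor chain for IL-18, averaged 79.6, 70.8, 73.0 and 66.3 CPM per kilobase in the 4 groups. None of the 6 tested neighbours of Il1rl1 in that cluster was called in any comparison. Il17ra, Il1rap and Il18r1 were chosen after their values were seen.

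Il4, Il13 and Il5 lie together on chromosome 11, with Rad50 between Il13 and Il5, in a locus that GATA3 opens in type 2 lymphocytes. Il4 (ENSMUSG00000000869, 53602982 to 53618669, minus strand) encodes the cytokine that drives type 2 helper cells. It averaged 2.98 ± 0.56 CPM in cKO iILC1 (range 2.29 to 3.66) and 3.90 ± 1.80 CPM in control iILC1 (2.63 to 5.96). It averaged 2.80 ± 0.69 CPM in cKO iNK (1.84 to 3.47) and 3.00 ± 0.73 CPM in control iNK (2.19 to 3.60). All groups overlapped, and the level was 9 to 34 counts per library. The log2 fold change of Il4 in iILC1 over iNK was 0.08 (interval −0.73 to 0.90) in cKO mice and 0.40 (interval −0.57 to 1.36) in control mice. Kif3a on the plus strand ends just before the Il4 gene, and the kit does not mark strand.

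Il5 (ENSMUSG00000036117, 53720794 to 53725106, plus strand) encodes the growth factor of eosinophils. It had 13, 3, 2 and 7 counts in the cKO iILC1 libraries and 4, 10 and 6 counts in the control iILC1 libraries, against 3, 2, 3 and 2 counts in the cKO iNK libraries and 1, 4 and 0 counts in the control iNK libraries. As CPM these averaged 0.787 ± 0.585 in cKO iILC1, 1.42 ± 0.494 in control iILC1, 0.324 ± 0.127 in cKO iNK and 0.270 ± 0.342 in control iNK. Control iILC1 lay above control iNK in every library, which also held for 12% of all genes tested, and the cKO groups overlapped. In a fit without the filter, its log2 fold change in iILC1 over iNK was 2.30 (SE 1.05) in control mice and 1.29 (SE 0.86) in cKO mice, with edgeR adjusted p-values of 0.256 and 0.845. In its highest library Il5 lay above 67.1% of the receptor genes.

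Il13 (ENSMUSG00000020383, 53631324 to 53634702, minus strand), whose product acts on epithelium and smooth muscle, had 2 counts in cKO iILC1, 1 in control iILC1, 4 in cKO iNK and 5 in control iNK, summed over the libraries of each group. Pooled over a group, that is 0.0654 CPM (exact Poisson 95% interval 0.0079 to 0.236) in cKO iILC1 and 0.0719 CPM (0.0018 to 0.401) in control iILC1. It is 0.121 CPM (0.033 to 0.309) in cKO iNK and 0.266 CPM (0.087 to 0.622) in control iNK. No group difference in Il13 was detectable at this depth. The intervals cover counting error only.

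The stretches before Il13, Il5 and an inner RefSeq start of Il4 are shown because each held 1 GATA word, in capitals. The word lay at a like distance from the start site (−81, −72 and −80). The Il4 stretch lies within the annotated span of the gene and was picked for its word. Of all promoter windows, 26.54% held at least 1 such word. They are chr11:53634703-53634952, minus strand, chr11:53720544-53720793, plus strand, and chr11:53617339-53617588, minus strand, on GRCm38.p6 from RefSeq.
Il13: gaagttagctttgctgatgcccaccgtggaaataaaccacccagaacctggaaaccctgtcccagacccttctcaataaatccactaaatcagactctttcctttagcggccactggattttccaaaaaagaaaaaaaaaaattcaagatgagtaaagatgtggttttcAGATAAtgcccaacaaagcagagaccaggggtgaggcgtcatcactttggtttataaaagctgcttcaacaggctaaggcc
Il5: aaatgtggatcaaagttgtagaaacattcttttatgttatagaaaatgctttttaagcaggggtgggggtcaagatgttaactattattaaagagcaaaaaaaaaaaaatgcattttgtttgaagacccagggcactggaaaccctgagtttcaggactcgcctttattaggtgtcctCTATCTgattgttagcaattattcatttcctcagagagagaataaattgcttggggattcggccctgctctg
Il4: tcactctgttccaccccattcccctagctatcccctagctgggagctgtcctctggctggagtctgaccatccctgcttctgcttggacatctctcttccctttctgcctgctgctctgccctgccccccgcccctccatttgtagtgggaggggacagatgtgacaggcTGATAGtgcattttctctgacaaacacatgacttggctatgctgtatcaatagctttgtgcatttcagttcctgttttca
The stretch before the other RefSeq start of Il4, at the outer end of the gene, held none, so the likeness rests on the inner start. Across the locus, mean levels per kilobase ran from 0.055 to 0.222 CPM for Il13, 0.176 to 0.923 CPM for Il5 and 2.28 to 3.18 CPM for Il4 over the groups. The genes beside them ran from 12.2 to 15.2 CPM per kilobase for Rad50, a DNA repair gene, 3.73 to 6.30 for Kif3a, a kinesin motor gene, and 89.2 to 121 for Irf1, an interferon response factor. Of the 5 tested neighbours, Sept8, which encodes a septin, was called higher in iILC1. It averaged 38.0 ± 8.20 CPM in cKO iILC1 and 7.54 ± 2.43 CPM in cKO iNK (log2 fold change 2.34, SE 0.26, edgeR adjusted p = 1.64e-07), and 25.0 ± 3.33 CPM in control iILC1 and 7.04 ± 1.87 CPM in control iNK (1.82, SE 0.30, edgeR adjusted p = 0.00034). Rad50, Kif3a and Irf1 were not called in any comparison.

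**Figure D3:**
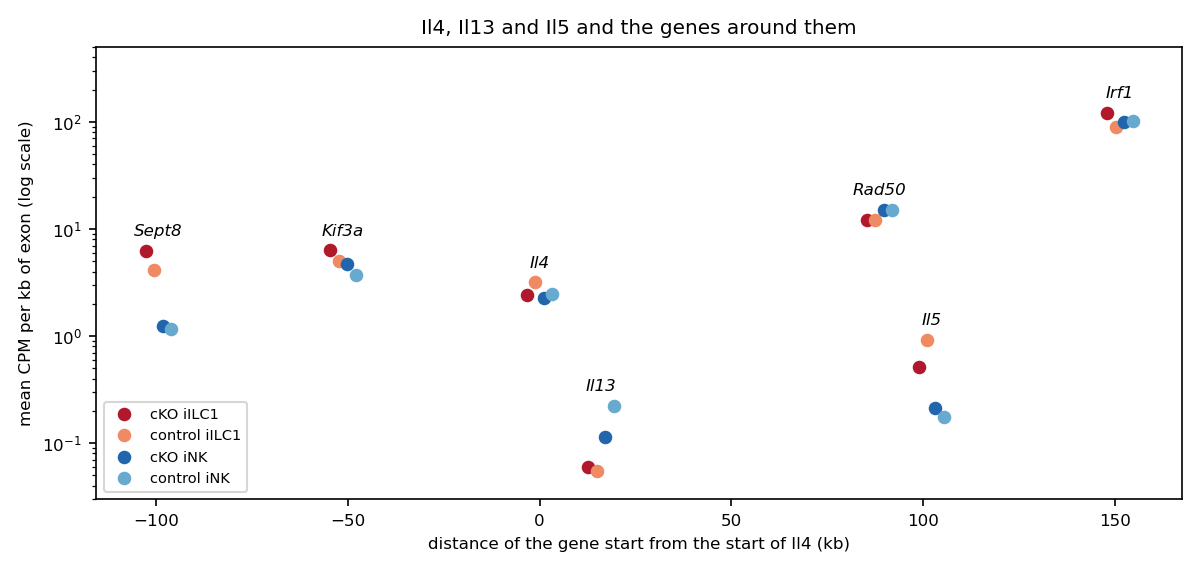
Mean CPM per kilobase of exon (log axis) of Il4, Il13, Il5 and their neighbours in the 4 groups, by distance of the gene start from that of Il4 in kilobases; points of a gene are set side by side for clarity. Il13 (at most 0.222 CPM per kilobase) and Il5 (at most 0.923) lie below Rad50 and Irf1 in all groups, and Sept8 shows the widest gap between iILC1 and iNK points among the neighbours drawn.

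Areg (ENSMUSG00000029378, chromosome 5, 91139599 to 91148432, plus strand) encodes amphiregulin, a ligand of the EGF receptor that ILC2s release during tissue repair. It had 0, 1, 0 and 6 counts in the cKO iILC1 libraries and 0, 1 and 1 in the control iILC1 libraries, against 1, 0, 1 and 0 in the cKO iNK libraries and 3, 2 and 2 in the control iNK libraries. In the fit without the filter none of its 5 comparisons had a p under 0.05 before adjustment. The lowest was 0.111, for cKO against control iNK. Of 10 tested genes of EGF receptor ligands and their shedding, none was called between cell types or genotypes by edgeR.

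Between the genotypes, none of the 5 tested members was called in iILC1 or in iNK by edgeR, where 0.0482% and 0.408% of all genes were called. DESeq2 called Arg1 in iILC1 and no member in iNK. Before adjustment, Arg1 and Icos had an edgeR p under 0.05 in iILC1, both higher in cKO, and no member did in iNK. Of all 26990 genes tested, 1221 had such a p in iILC1 and 2125 in iNK. All tests of cKO against control used the same control libraries as the tests of iILC1 against iNK, so the values are not independent of those above.

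Arg1 averaged 82.8 ± 32.5 CPM in cKO iILC1 and 32.1 ± 9.10 CPM in control iILC1, and each cKO library lay above each control library, as it did for 2.66% of all genes. The log2 fold change was 1.37 (SE 0.31, interval 0.75 to 2.00), with an edgeR p of 0.000111 before adjustment and 0.122 after it. The call depended on the fit: the adjusted p was 0.0128 in DESeq2 and 0.00207 in edgeR with no filter on low counts. Without cKO iILC1 replicate 1 the log2 fold change was 1.07 (edgeR adjusted p = 0.386). With any 1 of the 14 libraries left out, the log2 fold change was 1.07 to 1.58 and was not called. The adjusted p was above 0.386 in another of these fits. In iNK, Arg1 averaged 5.43 ± 1.99 CPM in cKO and 3.74 ± 1.88 CPM in control libraries, which overlapped (0.54, interval −0.21 to 1.29, edgeR adjusted p = 0.751).

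Icos averaged 104 ± 32.2 CPM in cKO iILC1 and 65.2 ± 20.1 CPM in control iILC1, and the libraries overlapped. The log2 fold change was 0.69 (SE 0.26, interval 0.14 to 1.23), with an edgeR p of 0.0149 before adjustment and 0.979 after it. In iNK, Icos averaged 47.8 ± 15.2 CPM in cKO and 47.9 ± 10.7 CPM in control libraries (0.00, interval −0.53 to 0.54). The estimates for Il1rl1, Il17rb and Il4 in iILC1 were 0.24 (interval −0.40 to 0.89), −0.59 (−1.35 to 0.16) and −0.41 (−1.30 to 0.48). In iNK they were 0.03 (−0.61 to 0.66), 0.44 (−0.32 to 1.21) and −0.09 (−0.98 to 0.80).

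The genotype effect did not differ between the cell types past the test for any of the 5 members, against 0.0778% of all genes called by edgeR. No member had an edgeR p under 0.05 before adjustment, which 1905 of the 26990 genes tested had, and DESeq2 called none. The effect in iILC1 minus that in iNK was 0.83 (SE 0.48, edgeR adjusted p = 0.712) for Arg1 and −1.04 (SE 0.53, edgeR adjusted p = 0.708) for Il17rb. For Il1rl1 and Il4 it was 0.22 (interval −0.69 to 1.12) and −0.31 (interval −1.57 to 0.95).

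**Figure D4:**
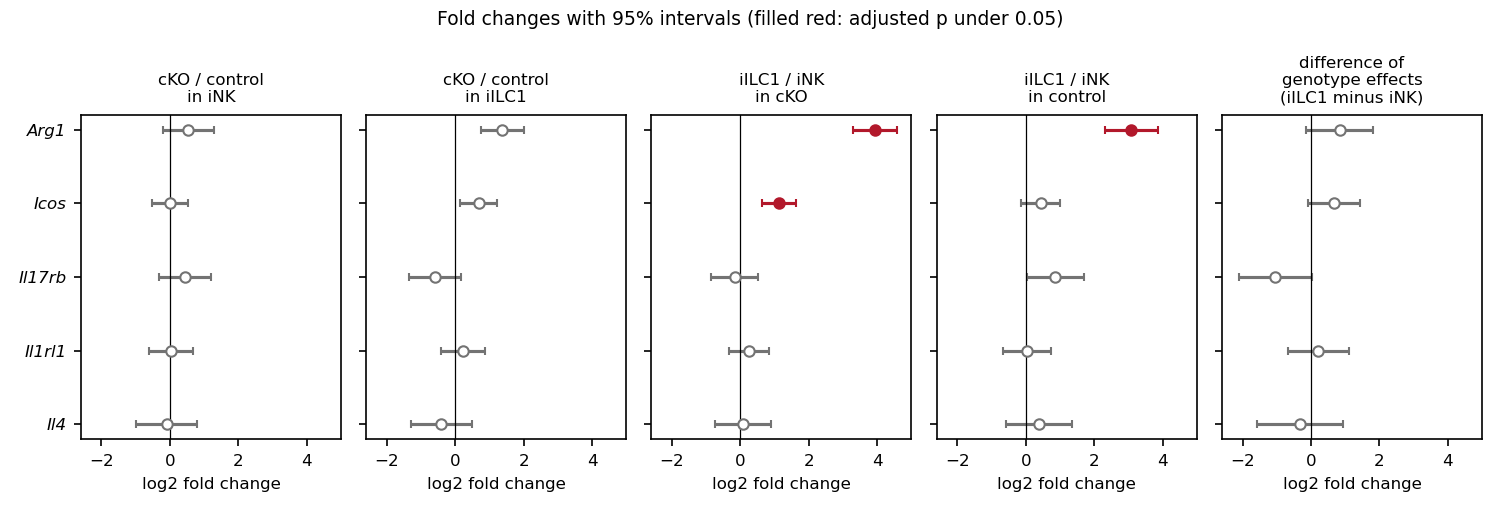
Log2 fold changes (points) with 95% intervals (bars) of the 5 tested members in the 5 comparisons, from the edgeR fit of all 14 libraries. Filled red points passed an adjusted p of 0.05: Arg1 between cell types in both genotypes (3.92 and 3.09) and Icos between cell types in cKO mice (1.12).

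The genes whose pattern over the 14 libraries was most like that of Arg1 were Apol7b, Adam8 and Cd200r1. Likeness was the root mean square difference of centred log2 CPM over the 14 libraries, among 12507 genes, and it was 0.54 for Apol7b, 0.55 for Adam8 and 0.55 for Cd200r1. Apol7b averaged 93.3 ± 32.5 CPM in cKO iILC1, 43.2 ± 14.3 CPM in control iILC1, 10.7 ± 1.39 CPM in cKO iNK and 4.11 ± 0.34 CPM in control iNK. It belongs to a family of near-identical copies, so its counts are uncertain. Adam8, which encodes a surface metalloproteinase, averaged 110 ± 35.5, 49.8 ± 17.4, 10.8 ± 2.51 and 13.0 ± 3.93 CPM in the same order. Cd200r1, which encodes an inhibitory receptor, averaged 77.6 ± 31.8, 54.9 ± 2.71, 6.80 ± 2.89 and 8.53 ± 3.00 CPM. This is a description, since the 14 libraries fall into the same 4 groups for every gene.

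Other genes of the arginine and polyamine pathway were not called together in 1 direction. Of 11 tested, 1 was called higher and 1 lower in cKO iILC1 than in cKO iNK, and 2 were called lower in control iILC1 than in control iNK. Odc1, which makes putrescine from ornithine, averaged 171 ± 40.8 CPM in cKO iILC1 and 77.1 ± 4.84 CPM in cKO iNK (log2 fold change 1.15, SE 0.20, edgeR adjusted p = 0.000256). Sat1, which breaks polyamines down, averaged 124 ± 26.1 CPM in cKO iILC1 and 238 ± 48.3 CPM in cKO iNK (−0.95, edgeR adjusted p = 0.00779). It averaged 93.4 ± 26.6 CPM in control iILC1 and 186 ± 39.2 CPM in control iNK (−0.99, adjusted p = 0.0227), with an adjusted p of up to 0.184 when libraries were left out. Srm, the spermidine synthase gene, averaged 45.9 ± 8.32 CPM in control iILC1 and 91.3 ± 14.5 CPM in control iNK (−0.99, adjusted p = 0.0138), and 0.145 without control iILC1 replicate 2. The median of the 11 was −0.04 in cKO and −0.10 in control mice. Arg2, the mitochondrial arginase gene, chosen after its values were seen, averaged 2.39 to 2.89 CPM in cKO iILC1, control iILC1 and cKO iNK and 1.97 CPM in control iNK.

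Beyond the members, ILC2 receptor genes differed between the cell types in 1 direction. Of 26 tested, 12 were called higher and 0 lower in cKO iILC1 (median log2 fold change 0.83, against 0.01 over all genes), and 9 were called higher and 0 lower in control iILC1 (median 0.86, against 0.16). The shares of all genes called in either direction were 3.42% in cKO and 3.91% in control mice. Tnfrsf25, the receptor for TL1A, averaged 119 ± 31.6 CPM in cKO iILC1 and 1.09 ± 0.32 CPM in cKO iNK, and 54.1 ± 17.2 CPM in control iILC1 and 1.75 ± 0.69 CPM in control iNK. Cxcr6, a chemokine receptor gene, averaged 842 ± 301 CPM in cKO iILC1 and 11.6 ± 6.22 CPM in cKO iNK, and 330.3 ± 156 CPM in control iILC1 and 9.68 ± 6.04 CPM in control iNK. The edgeR adjusted p-values of the 2 genes ran from 2.37e-14 to 4.85e-08. Il7r was also called, but its product was used to sort the cells. Il2ra, which encodes the high-affinity chain of the IL-2 receptor, averaged 43.2 ± 9.58 CPM in cKO iILC1 and 6.24 ± 1.96 CPM in cKO iNK, and 28.3 ± 4.35 CPM in control iILC1 and 7.15 ± 3.55 CPM in control iNK. These receptors are shared with ILC1s, T cells and other lymphocytes.

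Genes listed as ILC2 markers, other than the members, were called in part, and in 1 direction. Of 10 tested, 4 (Rora, Il2ra, Ccr8 and Bcl11b) were called higher and 0 lower in cKO iILC1 than in cKO iNK, with a median log2 fold change of 0.91. In control mice 5 (the same 4 and Hpgds) were called higher and 0 lower, with a median of 1.35. Over all genes, 3.42% were called in cKO and 3.91% in control mice, in either direction. The lists overlap: Il2ra, Ccr8 and Hpgds are counted among the receptor genes above, and Rora and Bcl11b among the transcription factors below. Ccr8, a chemokine receptor gene, averaged 8.27 ± 3.57 CPM in cKO iILC1 and 3.09 ± 0.30 CPM in cKO iNK (log2 fold change 1.42, edgeR adjusted p = 0.0167), and 6.92 ± 2.61 CPM in control iILC1 and 1.81 ± 0.19 CPM in control iNK (1.92, edgeR adjusted p = 0.0115, and up to 0.142 with a library left out). By genotype none of the 10 was called by edgeR in iILC1 or in iNK.

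Some genes of the same list were not called between the cell types. Ptgdr2, which encodes the prostaglandin D2 receptor CRTH2, averaged 0.63 CPM in cKO iILC1, 1.24 CPM in control iILC1, 0.39 CPM in cKO iNK and 1.02 CPM in control iNK. Nmur1, the neuromedin U receptor gene, averaged 1.43, 2.40, 1.00 and 1.53 CPM in the same order. Klrg1 averaged 10.7, 10.2, 6.26 and 13.7 CPM. Ptgdr2, Nmur1 and Klrg1 were chosen after their values were seen.

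Transcription factors split. Of 22 tested, 5 were called higher and 2 lower in cKO iILC1 than in cKO iNK (median 0.12), and 5 higher and 1 lower in control iILC1 than in control iNK (median −0.24, against 0.16 over all genes). Again 3.42% of all genes were called in cKO and 3.91% in control mice. Rora, needed for ILC2s, averaged 289 ± 67.9 CPM in cKO iILC1 and 65.4 ± 11.0 CPM in cKO iNK (log2 fold change 2.14, SE 0.21, edgeR adjusted p = 2.97e-08), and 134.5 ± 25.01 CPM in control iILC1 and 49.5 ± 8.12 CPM in control iNK (1.44, edgeR adjusted p = 0.000434). Bcl11b, which keeps the ILC2 and T cell programs, averaged 45.5 ± 24.3 CPM in cKO iILC1 and 5.83 ± 2.92 CPM in cKO iNK, and 37.9 ± 11.5 CPM in control iILC1 and 9.23 ± 0.55 CPM in control iNK (2.99 and 2.03). Maf averaged 64.6 ± 17.2 CPM in cKO iILC1 and 10.0 ± 2.15 CPM in cKO iNK, and 37.8 ± 11.3 CPM in control iILC1 and 13.4 ± 1.38 CPM in control iNK (2.68 and 1.49). The edgeR adjusted p-values of Bcl11b and Maf were at most 0.00125. Irf4 averaged 8.31 ± 2.03 CPM in control iILC1 and 2.56 ± 0.98 CPM in control iNK (1.68, edgeR adjusted p = 0.0118), and its adjusted p was up to 0.0894 with a library left out, missing the threshold in 3 of 14 such fits. Tcf7 and Nfkb1, which serve early ILC development and NF-kB signalling, were the genes called lower in cKO mice and Nfkb1 the one in control mice. Tcf7 and Nfkb1 were named after their values were seen.

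Gata3 was present in all groups and was not called. It averaged 117 ± 29.7 CPM in cKO iILC1, 99.5 ± 30.7 CPM in control iILC1, 73.0 ± 14.4 CPM in cKO iNK and 86.7 ± 24.6 CPM in control iNK. Its log2 fold change in iILC1 over iNK was 0.68 (SE 0.23, edgeR adjusted p = 0.129) in cKO mice and 0.19 (SE 0.27, adjusted p = 0.68) in control mice. It was chosen after its values were seen.

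**Figure D5:**
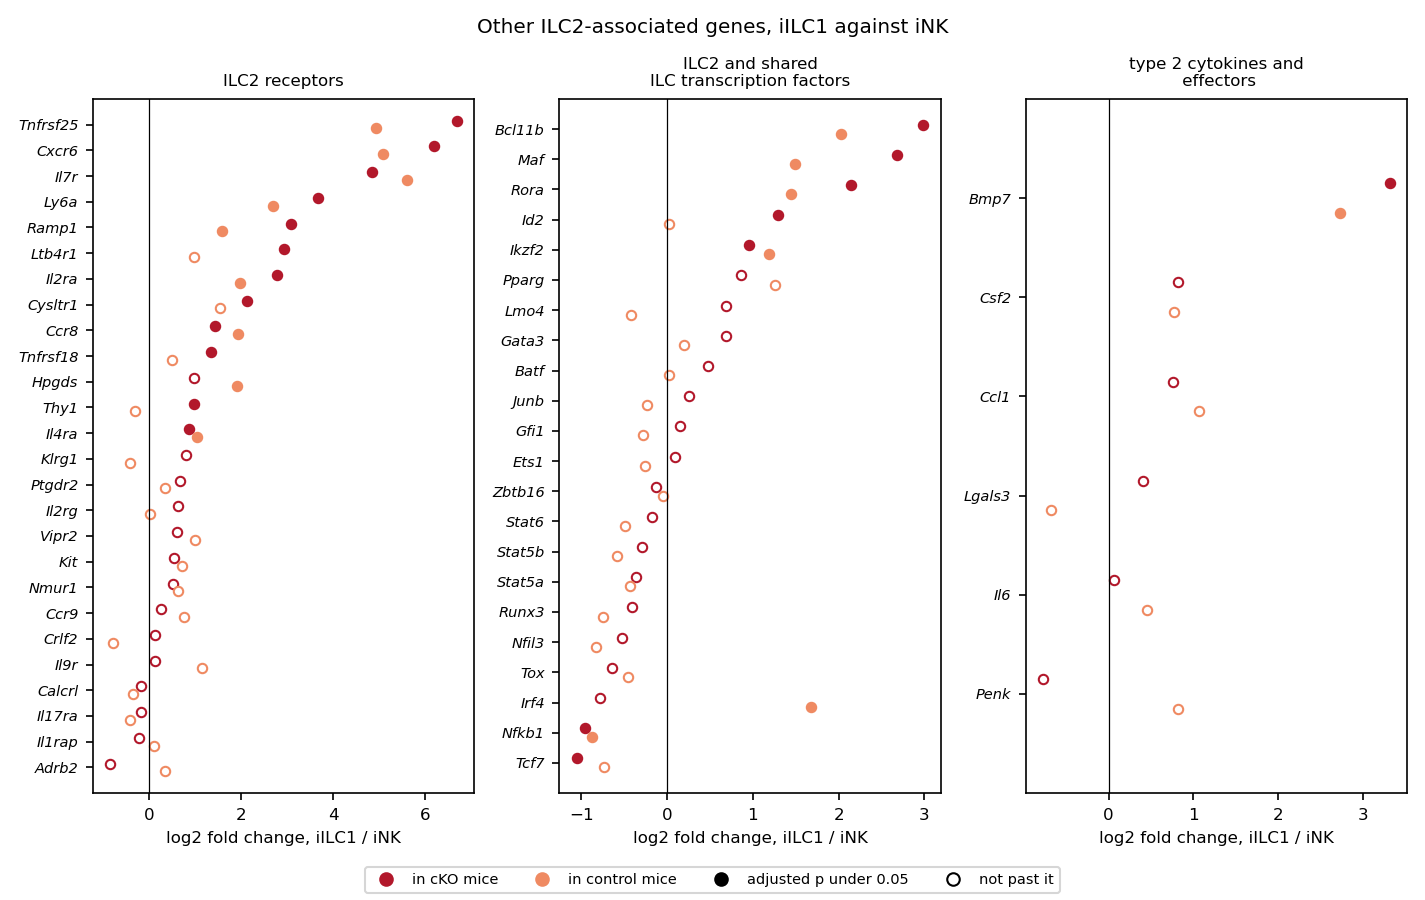
Log2 fold changes of iILC1 over iNK for other ILC2-associated genes, in cKO mice (dark red) and control mice (orange); filled points passed an adjusted p of 0.05 and open points did not. Tnfrsf25, Cxcr6 and Il7r lead the receptors in both genotypes, Bcl11b, Maf and Rora lead the transcription factors in cKO mice, Bcl11b, Irf4 and Maf lead them in control mice, and Bmp7 is the only filled type 2 effector gene.

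Of 6 tested type 2 cytokine and effector genes beyond the members, Bmp7 was called higher in iILC1 in both genotypes. Bmp7, which encodes a bone morphogenetic protein, averaged 51.5 ± 12.2 CPM in cKO iILC1 and 5.14 ± 1.43 CPM in cKO iNK (log2 fold change 3.32, SE 0.29, edgeR adjusted p = 1.73e-09). It averaged 48.1 ± 14.3 CPM in control iILC1 and 7.23 ± 3.27 CPM in control iNK (2.74, SE 0.33, edgeR adjusted p = 2.58e-06). Of 4 tested genes for ligands of the member receptors, Icosl, the ICOS ligand gene, was called higher in cKO iILC1 (49.3 ± 22.1 CPM) than in cKO iNK (17.5 ± 5.55 CPM), with a log2 fold change of 1.497 and an edgeR adjusted p of 0.000669. Ctla4, which lies beside Icos, averaged 5.91 ± 2.49 CPM in cKO iILC1 and 2.103 ± 0.472 CPM in cKO iNK (edgeR adjusted p = 0.0406), and 5.98 ± 3.43 CPM in control iILC1 and 1.28 ± 0.58 CPM in control iNK (adjusted p = 0.0161). With libraries left out in turn, the adjusted p of Ctla4 reached 0.188 and 0.108.

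By genotype, 4 genes of these lists were called in iNK and none in iILC1, apart from the cell type markers. Over all genes tested, 0.408% were called by genotype in iNK and 0.0482% in iILC1. Thy1, a surface antigen gene, averaged 13.1 ± 2.18 CPM in cKO iNK and 39.0 ± 8.21 CPM in control iNK (log2 fold change −1.58, edgeR adjusted p = 0.00479). Il7r averaged 22.3 ± 5.60 CPM in cKO iNK and 8.37 ± 2.59 CPM in control iNK (1.42, edgeR adjusted p = 0.00667), although iNK cells were sorted as lacking its product. Irf4, which type 2 cells use for cytokine output, averaged 9.18 ± 1.09 CPM in cKO iNK and 2.56 ± 0.98 CPM in control iNK (1.83, edgeR adjusted p = 0.0134). Lgals3, a galectin gene of the effector list, averaged 11.1 ± 1.34 CPM in cKO iNK and 34.3 ± 8.73 CPM in control iNK (−1.63, edgeR adjusted p = 0.0134). Leaving out 1 library brought the adjusted p to 0.0538 for Thy1, 0.0687 for Il7r, 0.121 for Irf4 and 0.113 for Lgals3 at the most.

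Markers of cells other than ILC1s and NK cells that use the 8 genes were measured too. The summed level of the 12 ILC2 markers other than the members was 436 to 732 CPM in cKO iILC1 and 293 to 392 CPM in control iILC1, against 157 to 186 CPM in cKO iNK and 148 to 202 CPM in control iNK. These sums did not overlap between iILC1 and iNK, nor between cKO and control iILC1. The sums of 14 stroma and endothelium markers were 401 to 476, 370 to 396, 299 to 383 and 238 to 303 CPM in the same order. These too were apart between iILC1 and iNK of the same genotype and between cKO and control iILC1, but control iILC1 and cKO iNK overlapped. Sums of basophil and mast cell markers and of B and plasma cell markers (805 to 1266 against 496 to 725 CPM) also separated cKO from control iILC1. Rora, 1 of the 12 ILC2 markers, averaged 289 CPM in cKO iILC1 and 65.4 CPM in cKO iNK. None of the 12 was at 0 in every library of a group. By the median of a group's libraries, however, only 5 lay above the receptor-gene 95th percentile in cKO iILC1. In control iILC1, cKO iNK and control iNK, 4, 1 and 3 did. The part of ILC2s in the Arg1 and Icos values was not tested.

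The summed level of 14 monocyte, macrophage and neutrophil markers was 134 to 321 CPM in cKO iILC1, 113 to 142 CPM in control iILC1, 66.9 to 424 CPM in cKO iNK and 147 to 281 CPM in control iNK. By genotype none of the 14 was called. Between cell types 2 (Retnlg and Mrc1) were called higher and 0 lower in cKO iILC1, and 2 (Csf1r and Mrc1) higher and 1 (S100a8) lower in control iILC1. Mrc1, a macrophage receptor gene, was called higher in iILC1, with 16.3 ± 9.72 CPM in cKO iILC1 and 4.71 ± 2.06 CPM in cKO iNK, and 14.6 ± 4.18 CPM in control iILC1 and 3.938 ± 1.098 CPM in control iNK (edgeR adjusted p = 0.00193 and 0.0118). With a library left out, the adjusted p in control mice was up to 0.0694. Csf1r, the receptor gene for a macrophage growth factor, averaged 20.5 ± 3.96 CPM in control iILC1 and 9.51 ± 2.88 CPM in control iNK (edgeR adjusted p = 0.0394, and up to 0.238 with a library left out). Retnlg, a neutrophil gene, averaged 13.6 ± 9.69 CPM in cKO iILC1 and 5.25 ± 1.26 CPM in cKO iNK (edgeR adjusted p = 0.0393, and up to 0.261 with a library left out). Lyz2, the lysozyme gene of monocytes and neutrophils, averaged 65.1 ± 33.6 CPM in cKO iILC1 and 22.6 ± 9.24 CPM in control iILC1, and 33.9 ± 30.6 CPM in cKO iNK and 71.2 ± 33.6 CPM in control iNK. Lyz2 was chosen after its values were seen. The part of such cells in the Arg1 values was not tested.

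The 12 basophil and mast cell markers summed to 281 to 359 CPM in cKO iILC1, 186 to 256 CPM in control iILC1, 206 to 249 CPM in cKO iNK and 121 to 192 CPM in control iNK. Among them, Cma1, a mast cell protease gene, was called lower in iILC1, at 2.75 ± 1.12 CPM in cKO iILC1 and 8.67 ± 1.45 CPM in cKO iNK, and at 4.70 ± 1.06 CPM in control iILC1 and 19.2 ± 9.49 CPM in control iNK. The 8 eosinophil markers summed to 21.7 to 23.4, 22.8 to 31.0, 10.6 to 24.1 and 9.53 to 17.9 CPM in cKO iILC1, control iILC1, cKO iNK and control iNK. Of these, 1 of 6 tested (Ccr3) was called higher in cKO iILC1 than in cKO iNK. The 16 T and NKT cell markers summed to 650 to 1178, 768 to 1234, 734 to 923 and 670 to 1018 CPM in the same order. Of 14 tested, 4 were called higher and 1 lower in cKO iILC1 than in cKO iNK, and 6 higher and 1 lower in control iILC1 than in control iNK. By genotype, Trac, a T cell receptor constant gene, was called lower in cKO iILC1 (16.7 ± 3.89 CPM) than in control iILC1 (45.9 ± 16.9 CPM), with an edgeR adjusted p of 0.0272 and up to 0.811 with a library left out. Cd3e averaged 27.5 ± 5.60 CPM in cKO iILC1 and 64.0 ± 20.6 CPM in control iILC1, against 3.66 ± 2.78 CPM in cKO iNK and 3.31 ± 1.46 CPM in control iNK. Between cell types it was higher in iILC1 in both genotypes (log2 fold change 2.94 in cKO and 4.27 in control mice, edgeR adjusted p = 3.12e-06 and 4.56e-07), as Arg1 was. None of these markers was at 0 in every library of a group. By the median of a group's libraries, 4, 3, 5 and 6 of the 12 basophil and mast cell markers lay above the receptor-gene 95th percentile, in the same order. So did 1, 2, 1 and 1 of the 8 eosinophil markers and 8, 8, 7 and 7 of the 16 T and NKT cell markers. The part of T cells, which also express Icos, in the Icos values was not tested.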

How the data were processed

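RNA of 14 sorted bone marrow libraries was counted. The deposited table holds unnormalised counts by Ensembl identifier and a gene length in exonic bases, per the file headers. The submitters' processing notes name the build mm10 and the tools Trimmomatic 0.33, HISAT2 2.1.0 and featureCounts of Subread 1.6.5. The annotation release and the strand setting are not given in the sources used here. The SMART-Seq v4 and Nextera XT kits do not mark strand, and antisense Gm12214 (0 counts) overlaps exons of Il5, so that counts of overlapping and near-identical genes are uncertain. Of 46078 identifiers, 45143 (97.97%) matched a mouse symbol.

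From the deposited counts, edgeR 4.0.16 in R 4.3.3 kept genes by filterByExpr (minimum count 10, minimum total 15), which left 26990, and scaled them by TMM factors. A single fit held all 14 libraries with 1 mean for each of the 4 groups (10 residual degrees of freedom, common biological coefficient of variation 30.0%). Its quasi-likelihood F test was two-sided, and p-values were adjusted by Benjamini and Hochberg's method across the 26990 genes (called below 0.05). DESeq2 1.42.0 was an alternative. Values are means ± SD of TMM-normalised CPM, and intervals are 95%. Total counts per library, given above, set the precision, and no library was a copy of another (replicates differed with a chi-square of 4.97 to 27.1 times its degrees of freedom).

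The 8 members, the gene lists and the tests were chosen with earlier results of these data known. All 8 members are named in every comparison. From each list up to 3 called genes with the largest fold change were to be named, and for each member whose 4 group means spanned over 2 log2 units, which was Arg1, the 3 genes (mean of at least 5 CPM) most like it. Lists of marker genes of other cells are given by sums and by the genes that bear on the members. Some of the genes that this rule picks from the lists of other cells and of the sort are not reported here. Genes outside the rule, such as sort markers and neighbours of members, were named with their values known. RefSeq promoter windows were matched by symbol for 6 of the 8 members (8 windows).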

Additional observations from a re-analysis of the deposited data

Results flagged for a closer look

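Icos in cKO iNK replicate 4 stood apart from the other libraries of its group, at 70.52 CPM against 39.4 to 40.7 CPM. That library was also the deepest of the series, with 12572326 counts. Areg in cKO iILC1 replicate 4 stood apart likewise, at 0.7627 CPM (6 counts) against 0 to 0.122 CPM. These are 2 of 16 group values examined, and chance alone gives about 1 such library in 20 groups.

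The genotype effect differed between iILC1 and iNK for Irf4, by −2.47 on the log2 scale (SE 0.50, edgeR adjusted p = 0.0448). Irf4 averaged 5.34 ± 1.44 CPM in cKO iILC1 and 8.31 ± 2.03 CPM in control iILC1, and 9.18 ± 1.09 CPM in cKO iNK and 2.56 ± 0.98 CPM in control iNK. With libraries left out in turn its adjusted p was 0.031 to 0.222, and it passed in 2 of 14 such fits. The same difference was −5.02 for Ly6d and −3.94 for Fcmr, which are B cell markers. Ly6d averaged 18.6 ± 5.90 CPM in cKO iNK and 1.18 ± 0.27 CPM in control iNK, Fcmr 19.4 ± 4.80 CPM in cKO iNK and 1.33 ± 0.31 CPM in control iNK. The 15 B and plasma cell markers summed to 892 to 1412 CPM in cKO iNK and 429 to 645 CPM in control iNK. The part of B cells in the Irf4 values of cKO iNK, a gene that B cells also express, was not tested.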

How the results depend on the processing

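The Arg1 call between cell types and the Icos call in cKO mice held under every alternative tried, and the counts of members called kept their main value with any 1 of the 14 libraries left out. For genotype in iILC1 the count of members called was 1 (Arg1) with DESeq2, with no filter and with the replicate block. For cell type in control mice it was 2 (Arg1 and Icos) with the background covariate.

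Counts of all genes called (110 for genotype in iNK, 13 in iILC1, 923 and 1056 for cell type in cKO and control, 21 for the interaction) moved more. They were 294, 46, 2180 (control) and 37 with DESeq2, which moved the share of higher calls to 23.8%, 56.5% and 48.6% in iNK, iILC1 and the interaction, against 38.2%, 46.2% and 28.6%. They were 191 (iNK), 47 (iILC1) and 56 (interaction) with no filter, 210 (iNK), 30 (iILC1) and 1593 (control cell types) at 5 CPM in 3 libraries, and 220 (iNK) and 1696 (control cell types) with only the groups compared. With the background covariate they were 382, 50, 1658 (cKO) and 33, and the share of higher calls in control mice was 44.5% against 23.3%. With a library left out they ran from 63 to 230, 4 to 22, 713 to 1094, 394 to 2050 and 10 to 33. The cause was not tested.

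Samples of the groups shared replicate numbers, but not every pair of the same number deviated together (correlations −0.09 to 0.35), and 0 of 6, 3 of 6, 2 of 8 and 3 of 6 samples correlated best with their own number. With the replicate block the counts were 175, 30, 2212 (control) and 40, and Arg1 by genotype in iILC1 had a log2 fold change of 1.42 (edgeR adjusted p = 0.0305).

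Estimates near 0 changed sign. In iNK by genotype, Il1rl1 was −0.024 with RLE factors and with DESeq2 and −0.16 with the covariate. Icos was −0.056 with RLE factors, −0.057 with DESeq2 and −0.089 with the block. Il1rl1 between control cell types was −0.44 with the covariate, and Il17rb in cKO was 0.014 without the 2 libraries with the least background, an alternative chosen after seeing the data. With libraries left out, Il1rl1 ran from −0.20 to 0.28 (genotype in iNK), −0.0063 to 0.56 (iILC1), −0.28 to 0.28 (control cell types) and −0.048 to 0.53 (interaction). Il4 ran from −0.26 to 0.086, −0.59 to 0.043, −0.056 to 0.60 and −0.51 to 0.14 in the same order, and −0.066 to 0.24 between cKO cell types. Icos in iNK ran from −0.20 to 0.12 and Il17rb between cKO cell types from −0.36 to 0.094.

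Depth limits Il5, Il13 and Areg, at 13 counts per library or fewer.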
